A study of Mus musculus with 71 samples.

Results

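Amino acid and peptide absorption was described here through 10 genes, chosen by name as the transporters and the brush border peptidase of protein absorption, of the 24475 genes in the 3 bulk RNA-sequencing tables. They are Slc15a1, Slc6a19, Slc6a20a, Slc7a9, Slc3a1, Slc7a7, Slc7a8, Slc3a2, Slc1a1, and Anpep. The libraries came from C57BL/6 Btnl2-KO mice and their WT littermates, all female and cohoused per the paper. The paper gives this for its mice in general and does not describe the colon tissue libraries. The knockout (KO) allele carries a LacZ cassette at the start codon of Btnl2 and a selection cassette behind it. Btnl2 is a butyrophilin-like gene of enterocytes. Intestinal epithelial cells (IECs; 16 libraries, 7 weeks of age per the labels) were the top Percoll layer after EDTA release. They came from duodenum (2 KO, 3 WT), jejunum (3 KO, 3 WT), and ileum (3 KO, 2 WT). γδ intraepithelial lymphocytes (γδ IELs; 22 libraries, 10 weeks of age per the labels, each a pool of 2 mice) were sorted as CD45+ TCRβ- TCRγδ+ cells. Per the paper their 3 segments came from the same mice, so libraries of different segments share animals, and the labels do not say which. They came from duodenum (3 KO, 4 WT), jejunum (4 KO, 4 WT), and ileum (3 KO, 4 WT). Whole tissue (27 libraries, labelled only as young) came from small intestine (7 KO, 7 WT) and colon (7 KO, 6 WT).

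Dietary protein reaches the enterocyte as small peptides and free amino acids. Anpep, aminopeptidase N, trims peptides at the brush border. Slc15a1 carries di- and tripeptides across the same membrane with protons, Slc6a19 carries neutral amino acids with sodium, Slc6a20a carries proline and other imino acids, and Slc1a1 carries glutamate and aspartate. Slc7a9 is the light chain, and Slc3a1 the heavy chain, of the exchanger that takes up cystine and dibasic amino acids. On the basolateral side, Slc3a2 is the shared heavy chain of the light chains Slc7a7 (dibasic amino acids) and Slc7a8 (neutral amino acids), and in most proliferating or activated cells it also pairs with other light chains such as Slc7a5. Absorption takes place mainly in the small intestine, and the colon is not a main site of amino acid uptake from the diet.

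Values are CPM, that is rounded expected counts divided by the effective (TMM) size of the library and rescaled to a common total within a table. A gene was called when edgeR's false discovery rate (FDR) over all genes tested was below 0.05 and the fold change above 1.5. Total counts were 15397757 to 38258472 per IEC, 13444958 to 30029485 per γδ IEL, and 13619309 to 21708721 per tissue library. All 10 members passed the count minimum of 10 in every comparison, which was required only in as many libraries as the smallest group holds. In γδ IELs some values were near 0. Slc15a1 was 0.169 to 0.358 CPM in the WT ileum libraries other than WT 2. Slc15a1, Slc6a20a, and Slc3a1 had 0 counts in single KO libraries. Btnl2 checked the genotype. In tissue it stood at 23.9 to 103 CPM in WT and 0.675 to 2.44 in KO small intestine, and at 0.651 to 2.40 in WT and 0 to 0.0453 in KO colon. In IECs it was 25.1 to 67.7 CPM in WT and 0.342 to 0.595 in 6 of the 8 KO libraries, but the library labelled jejunum KO 2 held 19.5 and that labelled duodenum KO 1 held 5.45. Regional genes of 3 IEC libraries went against their labels. Gata4, a transcription factor of the proximal small intestine, was 117 to 218 CPM in WT duodenum and jejunum and 29.9 to 34.9 in WT ileum. Fabp6, the ileal bile acid binding protein, was 0.348 to 20.2 and 580 to 586, respectively. The library labelled duodenum KO 1 had 50.7 CPM of Gata4 and 220 of Fabp6, jejunum KO 2 had 37.7 and 484, and ileum KO 1 had 153 and 0.231. In tissue, 2 small intestine libraries held far more Gata4 (KO 1, 95.6 CPM, and WT 5, 82.7) than the other 12 (0.167 to 15.1). Fabp6 was 1174 to 3985 CPM in those 12, and 431 and 105 in KO 1 and WT 5, respectively. By these 2 genes most small intestine tissue libraries resembled the ileum. Nothing in the labels said from where along the gut a tissue piece was taken. In whole tissue, fewer cells of a type and less RNA per cell cannot be told apart.

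The first question was how the members divide between small intestine and colon. Of the 10 members, 9 were called lower in WT colon than in WT small intestine, and all 10 were called lower in KO colon. In the background, 15.6% and 15.7% of all genes tested were called lower in these comparisons. The median log2 fold change of the members was -3.21 in WT and -4.04 in KO, and that of all genes tested was -0.02 and 0.02. The same count, 9 in WT and 10 in KO, was found under DESeq2, limma-voom, other size factors, no count filter, and every library left out in turn.

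The apical members covered the widest range. Anpep was 914.5, 5545, and 6865 CPM (lowest, median, and highest of 7) in WT small intestine and 16.1, 25.7, and 26.9 (of 6) in WT colon. Slc6a19 was 11.7, 207, and 384 CPM in WT small intestine and 0.963, 1.22, and 1.55 in WT colon. Neither gene overlapped between the tissues, with log2 fold changes of -7.67 ± 0.492 (SE; FDR 1.99e-08) for Anpep and -7.28 ± 0.844 (FDR 7.31e-06) for Slc6a19. In WT, 9 of the 10 members and 1633 of the 15162 genes tested were lower in colon without overlap. Both subunits of the cystine exchanger fell together, Slc7a9 by 6.03 and Slc3a1 by 5.27 on the log2 scale (FDR 4.81e-07 and 2.18e-05). The imino acid carrier Slc6a20a fell by 4.35 (FDR 4.6e-07). Its paralogue Slc6a20b was low throughout the tissue table, at 0.197 to 5.37 CPM in small intestine and 0 to 0.42 in colon, and reads that fit both copies could be assigned to either.

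The basolateral members and the apical carrier Slc1a1 differed less between the tissues than the apical members above. Slc7a8 was 35.3, 41.8, and 258 CPM in WT small intestine and 12.5, 17.4, and 28.5 in WT colon, a log2 fold change of -2.07 ± 0.478 (FDR 0.00261) that was -1.33 (FDR 0.000135) without the library high in Gata4, WT 5. Slc7a7 had a log2 fold change of -1.80 ± 0.222 (FDR 1.36e-05). Their heavy chain Slc3a2 was 86.3, 106, and 204 CPM in WT small intestine and 53.6, 56.3, and 65.7 in WT colon. Its log2 fold change was -1.03 ± 0.179 (FDR 0.000281). Slc1a1, the acidic amino acid carrier, fell by 1.61 ± 0.258 (FDR 0.000146). In KO tissue the order was much the same, from -8.79 ± 0.240 for Slc6a19 and -8.41 ± 0.195 for Anpep to -1.24 ± 0.167 for Slc3a2.

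Slc15a1, the peptide carrier, was the exception. It was 37.1, 302, and 355 CPM in WT small intestine and 27.0, 128, and 226 in WT colon, and the groups overlapped (log2 fold change -0.73 ± 0.55, FDR 0.292). In KO tissue it was 287, 365, and 1007 CPM in small intestine and 79.0, 156, and 208 in colon, with no overlap (-1.72 ± 0.315, FDR 0.00027). All 10 members and 2011 of the 14798 genes tested were lower in KO colon without overlap. Without WT small intestine libraries 6 and 7, an alternative chosen after seeing the data, Slc15a1 was called in WT as well (-1.15, FDR 0.0277). Per kilobase of exon, Slc15a1 was the most abundant member in WT colon at 27.0 ± 13.2 CPM per kb (SD, n = 6), ahead of Slc3a2 at 16.3 ± 1.28, Slc7a7 at 11.4 ± 1.02, and Slc1a1 at 8.69 ± 1.63. Slc15a1 and Slc3a2, the neighbours at the top of that order, lay within 1 SD of each other. Anpep led in WT small intestine at 1148 ± 546 CPM per kb (n = 7), followed by Slc3a1 at 74.0 ± 44.2 and Slc7a9 at 73.1 ± 30.7, which did not differ beyond their spread. Slc15a1 followed at 44.3 ± 27.9.

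**Figure D1:**
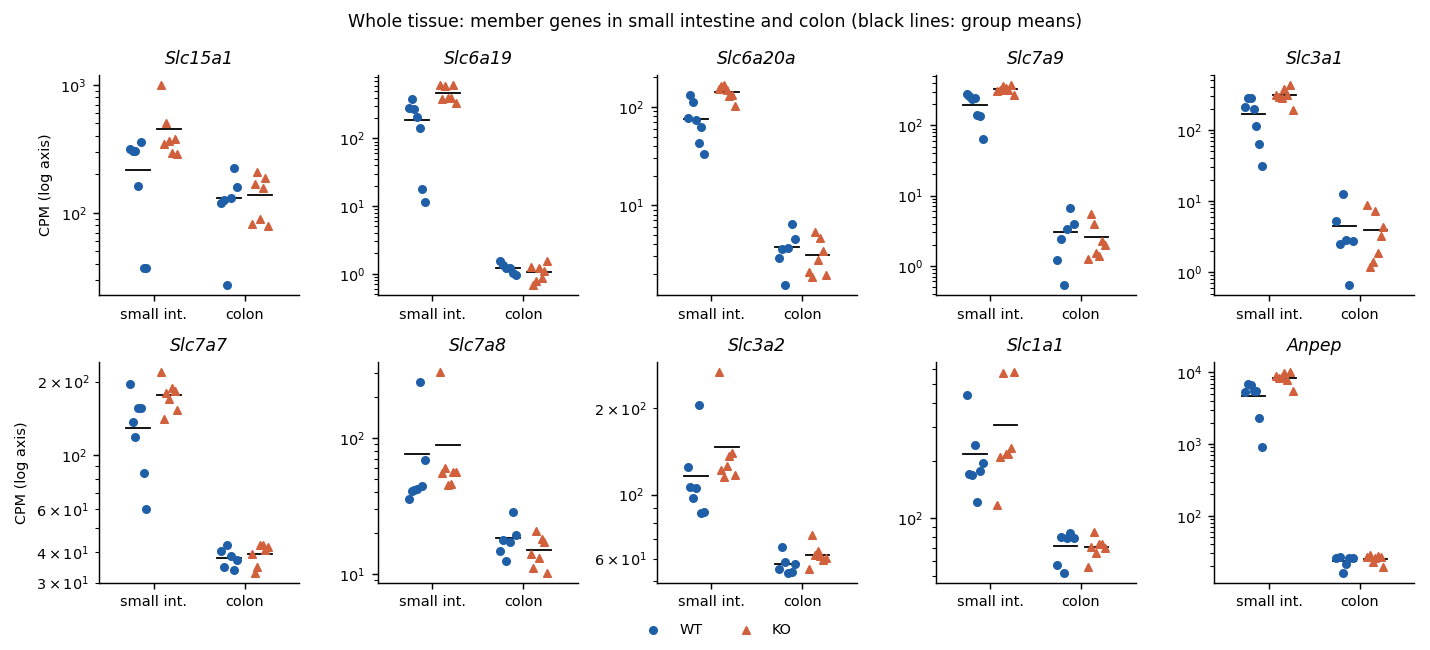
Each panel shows 1 member gene in whole small intestine and colon, in CPM on a log axis, with WT libraries as blue circles, KO libraries as orange triangles, and group means as black lines. The tissues are far apart for Anpep and Slc6a19, closer for Slc3a2, and overlap for Slc15a1 in WT, where 2 small intestine libraries sit near 37 CPM.

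Within the colon, the members did not move as a block. Hoxb13, a homeobox gene of the distal colon, ranged from 111 to 429.5 CPM over the 13 colon libraries, and the labels do not give a position along the colon. Slc3a1 was 12.8 CPM in the library with the least Hoxb13 (WT 3) and 1.18 in that with the most (KO 2). Slc15a1 was 27.0 CPM in the first and 168 in the second. Over the 13 libraries Slc3a1 fell with Hoxb13 on the log2(CPM + 1) scale (Pearson r = -0.96, Spearman rho = -0.94, adjusted permutation p = 0.0001 and 0.0003 over the 10 members tested, the first from the smallest p that 100000 resamples can give), with r = -0.98 in WT and -0.99 in KO. Slc15a1 rose with it (r = 0.90, rho = 0.90, adjusted permutation p = 0.0003 and 0.0005), with r = 0.95 in WT and 0.86 in KO. Without the 2 libraries farthest from the median of Hoxb13, r was -0.94 for Slc3a1 and 0.80 for Slc15a1.

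Slc7a9, which needs Slc3a1 at the cell surface, went the other way from it (r = 0.81, rho = 0.80, adjusted permutation p = 0.0017 and 0.00537, r = 0.72 without the 2 farthest libraries), at 0.527 to 6.60 CPM. Slc1a1 also rose (r = 0.82, rho = 0.73, adjusted permutation p = 0.0017 and 0.0128). Slc6a19, at 0.672 to 1.56 CPM, and Slc7a7, at 32.9 to 42.8 CPM, fell (r = -0.69 and -0.67, rho = -0.78 and -0.64, adjusted permutation p of the Pearson r 0.0168 and 0.0215). Slc6a20a passed by Pearson r only (0.62, adjusted p = 0.0318, against rho = 0.55 with adjusted permutation p = 0.0742). For Anpep, Slc7a8, and Slc3a2 the relation did not pass by either measure (r = 0.57, 0.48, and 0.34). The relation was looked for after the values of Slc15a1 and Slc3a1 had been seen, so the p-values describe these libraries and are not an independent test. The exons of Slc3a1 overlap those of Prepl on the opposite strand over 601 bases, those of Slc7a7 overlap Oxa1l over 232, those of Slc1a1 overlap 4430402I18Rik over 2631, and those of Slc6a20a overlap Gm17120 over 563. The labels name a strand-specific kit and the paper counts reads of the sense strand, but the kit the paper names is another one, which does not mark strand, so whether reads of these pairs were separable is not settled.

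**Figure D2:**
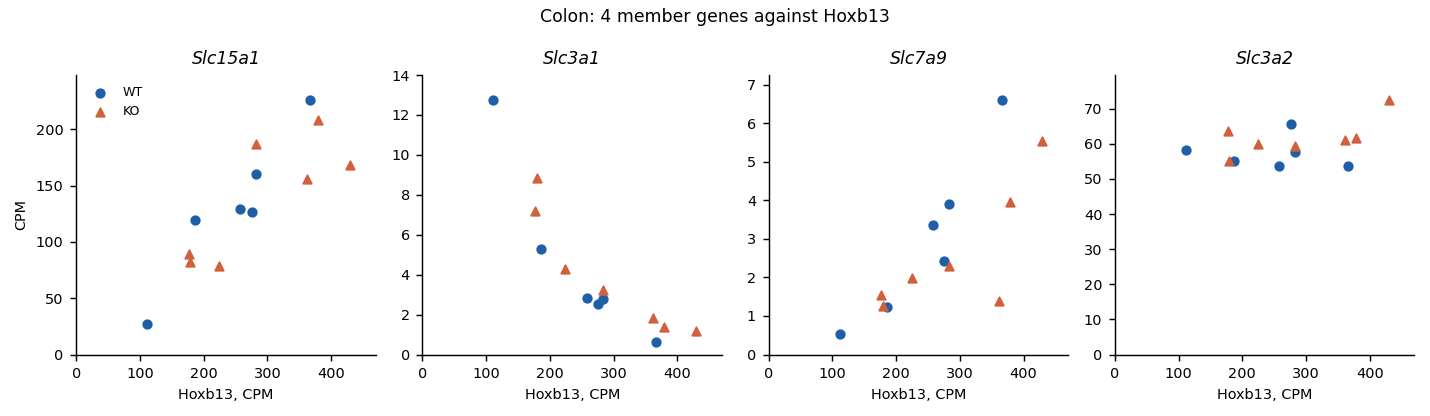
Each panel plots 1 member gene against Hoxb13 in the 13 colon libraries, both in CPM, with WT as blue circles and KO as orange triangles. Slc15a1 and Slc7a9 increase to the right, Slc3a1 drops from 12.8 CPM to between 0.651 and 1.84 in the libraries with the most Hoxb13, and Slc3a2 stays between 53.6 and 72.5 CPM.

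The 250 bases before the annotated start site are shown for Slc3a1 and Slc7a9, the subunits of one exchanger that went opposite ways within the colon, for Slc15a1, the member with the highest level per length in WT colon, and for Slc3a2, which had the smallest difference of the members called between the tissues in WT. They were read from RefSeq promoter windows of GRCm38.p6, in which all 10 members matched by symbol (15 windows). Each is written 5′ to 3′ in the direction of the gene, and capitals mark matches on either strand to 5 motifs. The motif of the GATA factors was searched for as AGATAA. For the liver and gut factor HNF1 the letters were GTTAAT, and for the nuclear receptor HNF4 they were AAAGTCC. The intestinal CDX factors were represented by TTTATG, and the TATA box was taken in its common form TATAAA. Slc3a1 lies at chr17:85028097-85028346 (plus strand), Slc7a9 at chr7:35448842-35449091 (plus strand, the first of its 2 windows), Slc15a1 at chr14:121505255-121505504 (minus strand), and Slc3a2 at chr19:8713898-8714147 (minus strand).
Slc3a1: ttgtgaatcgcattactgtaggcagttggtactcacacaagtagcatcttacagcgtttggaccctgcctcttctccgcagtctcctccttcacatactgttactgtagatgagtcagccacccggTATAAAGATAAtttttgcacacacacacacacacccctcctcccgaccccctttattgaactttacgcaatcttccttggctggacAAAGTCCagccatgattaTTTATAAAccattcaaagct
Slc7a9: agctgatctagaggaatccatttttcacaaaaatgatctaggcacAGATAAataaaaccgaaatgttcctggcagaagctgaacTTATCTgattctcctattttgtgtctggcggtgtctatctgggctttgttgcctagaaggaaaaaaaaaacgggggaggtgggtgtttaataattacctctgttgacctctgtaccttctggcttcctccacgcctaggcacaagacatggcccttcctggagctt
Slc15a1: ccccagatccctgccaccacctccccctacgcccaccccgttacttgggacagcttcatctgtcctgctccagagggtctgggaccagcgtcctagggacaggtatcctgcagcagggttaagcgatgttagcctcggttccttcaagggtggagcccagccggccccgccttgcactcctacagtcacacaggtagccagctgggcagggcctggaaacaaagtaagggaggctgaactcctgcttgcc
Slc3a2: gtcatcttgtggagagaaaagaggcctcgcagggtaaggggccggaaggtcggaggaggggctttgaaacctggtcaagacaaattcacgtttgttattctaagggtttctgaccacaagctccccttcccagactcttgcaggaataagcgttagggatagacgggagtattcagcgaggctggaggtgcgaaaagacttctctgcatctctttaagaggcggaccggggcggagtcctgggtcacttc

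The Slc3a1 window held a GATA match starting 119 bases before the start site, which overlaps a TATA box match by 1 base, an HNF4 match 38 bases before it, and further overlapping TATA box matches 20 and 18 bases before it. The Slc7a9 window held 2 GATA matches, 205 and 166 bases before the start site, and the windows of Slc15a1 and Slc3a2 held none of the 5 motifs. Over all 15 windows, GATA matches were found for 3 members (Slc3a1, Slc7a9, and Slc7a7), HNF1 matches for 2 (Slc6a20a and Slc7a7), and HNF4 and TATA box matches for 1 (Slc3a1). Counted by window, GATA matched 4 of the 15, HNF1 2, HNF4 and the TATA box 1 each, and CDX 0. The 2 Slc7a7 windows with a GATA match overlap and share that match. Of all 32851 promoter windows cut to the same length, 9.99% held the GATA motif, 6.43% the HNF1 motif, 3.58% the HNF4 motif, 10.8% the CDX motif, and 12.4% the TATA box. A match describes the letters and is not evidence of binding.

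The rest of the pathway behaved unevenly between the tissues. Of 37 further genes listed for amino acid transport and peptide digestion, 33 were tested in WT tissue, with 20 called lower and 4 higher in colon. Of all 15162 genes tested, 2371 were called lower and 1814 higher, so the share called higher was near the background. Of the 14 brush border and cytosolic peptidases tested, 13 were called lower. Among the largest drops were those of Ggt1, which cleaves glutathione (log2 fold change -6.61), Enpep, the glutamyl aminopeptidase (-6.26), Xpnpep2, the membrane aminopeptidase P (-5.75), the anion exchanger Slc26a6 (-5.52), and the peptidase Naaladl1 (-5.48). The 4 called higher were Slc6a14, Slc9a3, Slc36a1, and Slc1a5 (log2 fold changes 3.49, 2.20, 1.47, and 0.97), which are named after their values were seen. Slc6a14 and Slc36a1 carry neutral amino acids, Slc1a5 carries glutamine, and Slc9a3 exchanges sodium for protons.

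The second question was how the members vary along the small intestine. In WT IECs, 1 of 10 members was called between ileum and duodenum, where 6.59% of all genes tested were called. That member was Slc7a8, the basolateral neutral amino acid light chain. It was 232, 299, and 260 CPM in the 3 duodenal libraries, 170, 273, and 271 in the jejunum, and 110 and 85.9 in the ileum. Ileum lay below both other segments without overlap, with a log2 fold change against duodenum of -1.40 ± 0.263 (SE; FDR 0.0141). Without overlap, 2523 of the 13046 genes tested were lower in ileum than in duodenum, and 1383 lower than in jejunum. The FDR was 0.0856 and 0.137 when either ileal library was left out, and 0.168 with all 16 libraries in one fit. Against jejunum the log2 fold change was -1.27 ± 0.262 (edgeR FDR 0.0858), which passed with DESeq2 (FDR 0.000402) and limma-voom (FDR 0.0118). Without jejunum WT 1 the edgeR FDR of Slc7a8 against jejunum was 0.0486.

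With all libraries, no member was called between ileum and jejunum (0.644% of all genes called) or between jejunum and duodenum (0.767%) with edgeR, where 1 member each had an unadjusted p below 0.05. Against duodenum, 9 of 10 members had lower values in ileum, with a median log2 fold change of -0.54 beside 0.01 for all genes tested. Slc3a2 stood at 180, 328, and 179 CPM in duodenum and 126 and 103 in ileum (-0.97 ± 0.338, FDR 0.144). Slc1a1 went the other way, at 106, 105, and 121 CPM in duodenum and 158 and 143 in ileum (0.47 ± 0.167, FDR 0.156). Neither difference passed the test, although the groups did not overlap in either gene. In all, 6 members were lower and 1 higher in ileum without overlap, as were 2523 and 2311 of the 13046 genes tested. Slc15a1 was 57.4 to 64.3 CPM in duodenum, 26.5 to 133 in jejunum, and 40.2 to 54.8 in ileum, and the jejunal range spanned those of the other segments. In duodenum, WT 2 held more of 8 members than either other library, with 190 CPM of Slc6a19 against 57.5 and 59.0. In jejunum, WT 1 was lowest in 9 of 10 members, with 778 CPM of Anpep against 2371 and 2851.

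**Figure D3:**
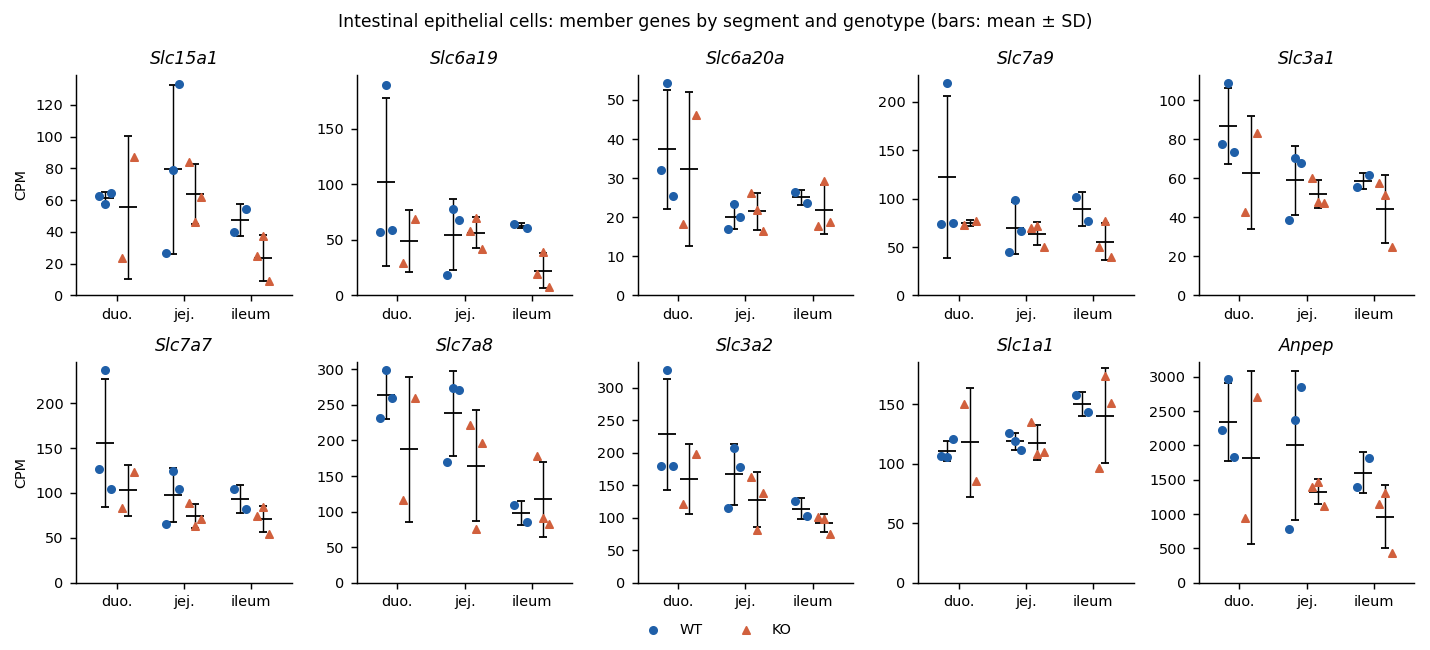
Each panel shows 1 member gene in IECs of duodenum, jejunum, and ileum, in CPM from 0, with WT libraries as blue circles, KO libraries as orange triangles, and bars for the mean ± SD. Slc7a8 in WT drops from 232 to 299 CPM in duodenum to 85.9 and 110 in ileum, and Slc1a1 is the member with its highest WT values in ileum.

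In KO IECs, 0 of 10 members and 0% of all genes were called between ileum and duodenum with edgeR (by unadjusted p below 0.05, 1 member and 632 genes). The 3 libraries whose regional genes went against their labels all stood in this set. Slc7a8 in them followed the regional genes rather than the labels, with 116 CPM in duodenum KO 1 against 260 in KO 2, 75.9 in jejunum KO 2 against 222 and 196, and 178 in ileum KO 1 against 90.9 and 83.3. Without these 3 libraries 3 members were called, Slc7a8 (log2 fold change -1.57, FDR 0.000456), Slc3a2 (-1.18, FDR 0.00454), and Slc1a1 (0.93, FDR 0.00904), among 2172 genes. A single duodenal library was then left and assumed to vary like the other groups, and the libraries were set aside for genes that differ between segments.

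The same 3 members stood apart in the 2 small intestine tissue libraries high in Gata4. Slc7a8 was 307 CPM in KO 1 and 258 in WT 5, against 35.3 to 69.4 in the other 12. Slc3a2 was 266 and 204 CPM, against 86.3 to 139. Slc1a1 was 118 and 121 CPM, below the 168 to 582 of the others. These are 2 libraries chosen by a measured gene, so no test was run.

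In IECs the 16 libraries can also be used to ask which genes had a pattern like that of each member, as a description over libraries that share segment, genotype, and depth. Slc3a2 was most like Slc36a1 (Pearson r = 0.99 of log2(CPM + 1) over 16 libraries and 13344 genes), Tm6sf2 (0.98), and Tmem86a (0.96). Slc7a8 was most like Gpr39 (0.97), the aromatic amino acid carrier Slc16a10 (0.96), and Naaa (0.95), and Slc7a7 like Lpcat3 (0.98), Gnpda1 (0.97), and Aqp11 (0.97). Among the apical members, Slc6a19 was most like Mpp1 (0.96), Slc6a20a like Slc46a1 (0.95), Slc7a9 like the meprin subunit Mep1b (0.95), Slc3a1 like G6pc (0.95), Slc15a1 like Sema6a (0.92), Anpep like Ggt1 (0.96), and Slc1a1 like Nacc2 (0.95). Between subunits, r was 0.91 for Slc3a2 with Slc7a7, 0.88 for Slc3a2 with Slc7a8, and 0.76 for Slc3a1 with Slc7a9. Slc3a1 was closer to Anpep (0.94) than to its light chain, and Slc1a1 ran against Slc3a1 (-0.52).

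Among the other genes of the pathway, 4 were called higher and 4 lower in WT ileum than in WT duodenum, of 32 tested. Of all 13046 genes tested, 549 were called higher and 311 lower. Tmprss15, the enteropeptidase that activates trypsinogen, fell by 8.36 on the log2 scale, and Mme, neprilysin, fell by 3.45. Slc6a14, a carrier of neutral and cationic amino acids, rose by 6.45, the large neutral amino acid carrier Slc43a1 by 2.46, Naaladl1 by 2.35, and Mep1a, a meprin subunit, by 2.22. Slc6a14 was the 1 gene of the list called between ileum and jejunum (3.92), and Naaladl1 the 1 called between jejunum and duodenum (1.44).

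The third question was what the sorted γδ IELs hold of these genes. Slc3a2 was 176 to 244 CPM in all 22 libraries, with a coefficient of variation of 9.39%, and its highest library exceeded its lowest by a factor of 1.39. The other 9 members together summed to 3.83 to 214 CPM per γδ IEL library and to 826.5 to 4234 in IECs, a table normalized separately. Anpep, for example, was 0.268 to 42.7 CPM in γδ IELs and 438 to 2963 in IECs. The range of Slc3a2 in IECs was 75.7 to 328 CPM. Ptprc, the CD45 gene, was 916 to 1770 CPM and Cd3e 846 to 1923, as the sort would give, but Epcam was still 123 to 957 and the enterocyte gene Vil1 2.72 to 184. These 2 genes differed as measures of epithelial content. The median of Epcam was 504 CPM in γδ IELs and 901 in IECs, and that of Vil1 97.4 and 1203. Btnl2, an epithelial gene, was 2.47 to 9.89 CPM in the WT libraries and 0 to 0.124 in the KO libraries.

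Slc3a2 was flat against the epithelial content of a library, measured as the mean log2(CPM + 1) of 12 pan-epithelial genes (r = -0.11, rho = -0.10, adjusted permutation p = 0.638 and 0.649, 22 libraries, 10 members tested). Slc7a9 and Slc7a7 followed it most closely (r = 0.93 for both, rho = 0.86 and 0.79, adjusted permutation p = 3.33e-05 for r), and Slc1a1 (0.87), Slc6a20a (0.80), Slc7a8 (0.75), Anpep (0.75), Slc3a1 (0.70), Slc6a19 (0.57), and Slc15a1 (0.49) also had positive r, with adjusted permutation p of 0.0188 or less. By Spearman's rho, Slc15a1 (0.38, adjusted permutation p = 0.091) and Slc6a19 (0.42, 0.0642) did not pass. The 2 libraries farthest from the median were jejunum KO 2 and ileum KO 2. Without them the r of Slc6a19 fell to 0.27, that of Slc15a1 to 0.32, and that of Anpep to 0.37. The r of Slc7a9 and Slc7a7 remained at 0.79 and 0.81. For Slc6a19, Slc15a1, and Anpep the size of r over all segments thus depended on those libraries. The duodenum holds neither of them, and r there was 0.87 for Slc6a19, 0.72 for Anpep, and 0.49 for Slc15a1 (7 libraries). Within the jejunum (8 libraries) r was 0.85 to 0.99 for the 9 members and -0.08 for Slc3a2. Within the duodenum and the ileum (7 libraries each) it was 0.49 to 0.94 and 0.18 to 0.95 for the 9, and 0.41 and -0.16 for Slc3a2. Over the 12 WT libraries alone r was -0.09 to 0.74 for the 9, with Anpep, Slc6a19, and Slc7a8 at -0.09, -0.03, and 0.03, and over the 10 KO libraries it was 0.75 to 0.98. The segment also moves with both quantities.

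The library with the least epithelial content, jejunum KO 2, shows the same in single values. It held 223 CPM of Slc3a2, 1.42 of Slc3a1, 0.727 of Slc7a8, 0.383 of Slc1a1, 0.268 of Anpep, and 0.0766 of Slc6a19. Slc15a1 had 0 counts there, which allows up to 0.126 CPM, counting error only. Other zeros stood in libraries with more epithelial content. Slc3a1 and Slc6a20a had 0 counts in ileum KO 2, and Slc6a20a had 0 in jejunum KO 3. The mean log2 level of the pan-epithelial genes was 5.84 and 6.31 in these libraries, against 3.86 in jejunum KO 2. Among light chains that can pair with Slc3a2, Slc7a6 was 17.4 to 32.8 CPM in γδ IELs and 11 to 20.4 in IECs, and Slc7a5 was 2.99 to 9.88 and 18.5 to 28.1. Slc1a5, the glutamine carrier, was 144 to 270 and 42.0 to 83.3 CPM. These 3 genes are named after their values were seen, and levels of the 2 tables are set side by side with no test.

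**Figure D4:**
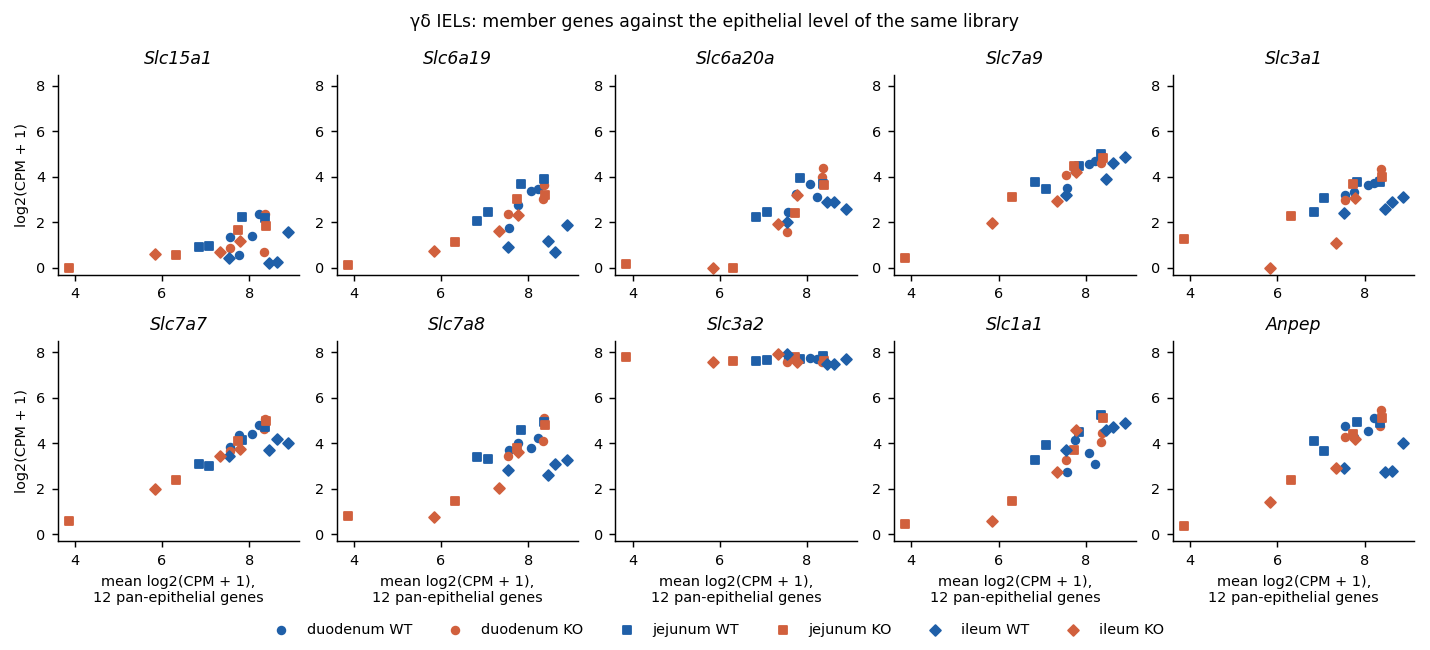
Each panel plots 1 member gene, as log2(CPM + 1), against the mean log2(CPM + 1) of 12 pan-epithelial genes in the 22 γδ IEL libraries, with circles for duodenum, squares for jejunum, diamonds for ileum, blue for WT, and orange for KO. Slc3a2 forms a level band, while Slc7a9 and Slc7a7 climb with the epithelial genes, and in Slc6a19 the WT ileum libraries lie below those of WT jejunum.

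Between segments of WT γδ IELs, 3 members were called lower in ileum than in jejunum. There, 21.9% of all genes tested were called in either direction, and 1356 of the 12899 were called lower. Slc6a19 was 4.40, 14.0, 3.13, and 11.7 CPM in the jejunum and 0.894, 2.65, 0.600, and 1.24 in the ileum, without overlap (log2 fold change -2.61 ± 0.593, FDR 0.00718). Without overlap, 2 of the 10 members and 2371 of the 12899 genes tested were lower in ileum, so the share of the members was near the background. Slc7a8 (-1.37 ± 0.347, FDR 0.0109) and Anpep (-1.36 ± 0.36, FDR 0.013) were also called. The call of Slc7a8 was lost with limma-voom (-0.96, FDR 0.0601), and those of Slc6a19, Slc7a8, and Anpep were lost with all γδ IEL libraries in one fit (FDR 0.0532, 0.219, and 0.219). Between ileum and duodenum Anpep was called (-1.59 ± 0.362, FDR 0.0358) and 2.11% of all genes, and between jejunum and duodenum 0 members and 22.5%, with 1 member at an unadjusted p below 0.05. The comparisons that include jejunum thus called the most genes. WT jejunum libraries also held less mitochondrial rRNA, at 2377 to 2910 CPM, against 4935 to 23199 in WT duodenum and 5403 to 11387 in WT ileum. The part of such library differences in the calls against jejunum was not tested. The call of Anpep against duodenum was lost (FDR 0.0637 to 0.131) without any one of duodenum WT 1, 2, and 4 and ileum WT 1, 3, and 4. The summed level of the pan-epithelial genes differed between the segments as well, at 3474 to 9038 CPM in WT ileum, 2046 to 5595 in jejunum, and 3322 to 5404 in duodenum. The 12 genes did not move together, with 6 called higher and 1 (Cdh1) lower in ileum than in jejunum. The enterocyte gene Vil1 was 63.4 to 137 CPM in ileum and 52.2 to 177.5 in jejunum, so the list does not measure enterocytes alone. With the epithelial level as a covariate, 8 members were called lower in ileum than in jejunum (with 1358 of the 12899 genes tested), 6 lower than in duodenum (545 genes), and 1 (Slc1a1, higher) between jejunum and duodenum (2867 genes). Slc7a9 turned from 0.02 to -1.0 (FDR 0.0223) against jejunum. Slc3a2 had log2 fold changes of -0.03 against jejunum and -0.04 against duodenum. In KO γδ IELs 0 members and 0.00775% of all genes were called between ileum and duodenum with edgeR, 0 members having an unadjusted p below 0.05.

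Of the 29 other pathway genes tested in WT γδ IELs, 3 were called higher and 4 lower in ileum than in duodenum (2.11% of all genes). The log2 fold changes were -7.17 for Mme, -2.09 for Ggt1, -1.32 for Slc26a6, 3.60 for Slc1a4, 2.70 for Naaladl1, and 2.31 for Mep1a. Against jejunum 2 were called higher and 6 lower, led by Mme (-5.90) and Slc9a3 (-3.64), a share near the 21.9% of all genes called.

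The last question was whether the loss of Btnl2 moved the members. With edgeR, 0 of 10 members were called between KO and WT in any of the 8 comparisons. The share of all genes called was 0% in IECs of the duodenum and jejunum and in γδ IELs of the ileum, 0.00774% in ileal IECs, 0.00789% and 0.00794% in duodenal and jejunal γδ IELs, 0.0202% in small intestine tissue, and 0.0269% in colon tissue. With edgeR few genes of any kind were called, so a count of 0 members is near the background. In ileal γδ IELs the count of genes depended on the method, with 1207 called by limma-voom. The paper, by DESeq2 at the same FDR and fold thresholds, reports many genes lower in ileal KO γδ IELs. Btnl2 itself was not called in IECs of the duodenum (log2 fold change -4.13) and jejunum (-2.74) or in γδ IELs of the ileum (-5.92). The KO libraries with raised Btnl2 described above enter the duodenal and jejunal IEC comparisons. Where the test did not call the deleted gene, a count of 0 members cannot show that the members were unchanged.

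In small intestine tissue all 10 members had higher means in KO, with log2 fold changes from 0.23 to 1.32 and a median of 0.78, beside -0.03 for all genes tested. The lowest was Slc7a8, whose value rested on the libraries high in Gata4, at -0.53 without KO 1 and 0.97 without WT 5. By unadjusted p below 0.05, 6 members and 3415 genes passed. Slc6a20a had the lowest FDR, at 33.3, 74.4, and 131 CPM (lowest, median, and highest of 7) in WT and 103, 148, and 169 in KO (0.89 ± 0.258, edgeR FDR 0.116). Slc6a19 had the largest fold change, at 11.7, 207, and 384 CPM in WT and 338, 392, and 625 in KO (1.32 ± 0.579, FDR 0.197). Anpep was 914.5, 5545, and 6865 CPM in WT and 5595, 8605, and 10193 in KO (0.82 ± 0.345, FDR 0.182). The groups overlapped in every member. DESeq2 called 2 members, Slc6a20a (0.90, FDR 0.0206) and Slc7a9 (0.75, FDR 0.0476), among 181 genes, and the fit over all tissue libraries called Slc6a20a (FDR 0.0457) among 219 genes, where edgeR called 3.

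The WT libraries were the more spread of the 2 groups. WT 6 and 7 had 17.8 and 11.7 CPM of Slc6a19, 37.1 and 37.3 of Slc15a1, and 932 and 695 of Vil1, against 1621 to 1964 of Vil1 in the other WT and 1752 to 3683 in the KO libraries. The 12 pan-epithelial genes summed to 9884 to 19298 CPM in WT and 14825 to 20075 in KO. Over the 14 small intestine libraries the members followed the mean log2 level of these genes for Slc7a9 (r = 0.95, rho = 0.86, adjusted permutation p = 0.0002 and 0.002, r = 0.94 in WT and 0.96 in KO) and Slc3a1 (r = 0.92, rho = 0.73, adjusted permutation p = 0.00025 and 0.0167). Without the 2 libraries farthest from the median r was 0.88 and 0.85. In all, 7 of 10 members passed, although Slc15a1 and Slc7a7 had r = 0.09 and 0.23 within KO, and Slc7a8, Slc3a2, and Slc1a1 did not (r = -0.31, 0.21, and 0.35). The part of this spread in the KO and WT difference was not tested. Without WT 6 and 7 the log2 fold changes of the 10 members were 0.09 to 0.87 and 0 were called. Without WT 2 and 3, which held 846 and 1624 CPM of the colonocyte gene Car1 against at most 0.61 in the other small intestine libraries, Slc6a20a was called (1.29, FDR 0.0242) among 324 genes, and the value of Slc7a8 was -0.01. These 2 alternatives were chosen after seeing the data. Slc1a1 was 441 CPM in WT 1, 571 in KO 3, and 582 in KO 7, against 118 to 242 in the other 11 libraries, a difference that does not follow the genotype labels.

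**Figure D5:**
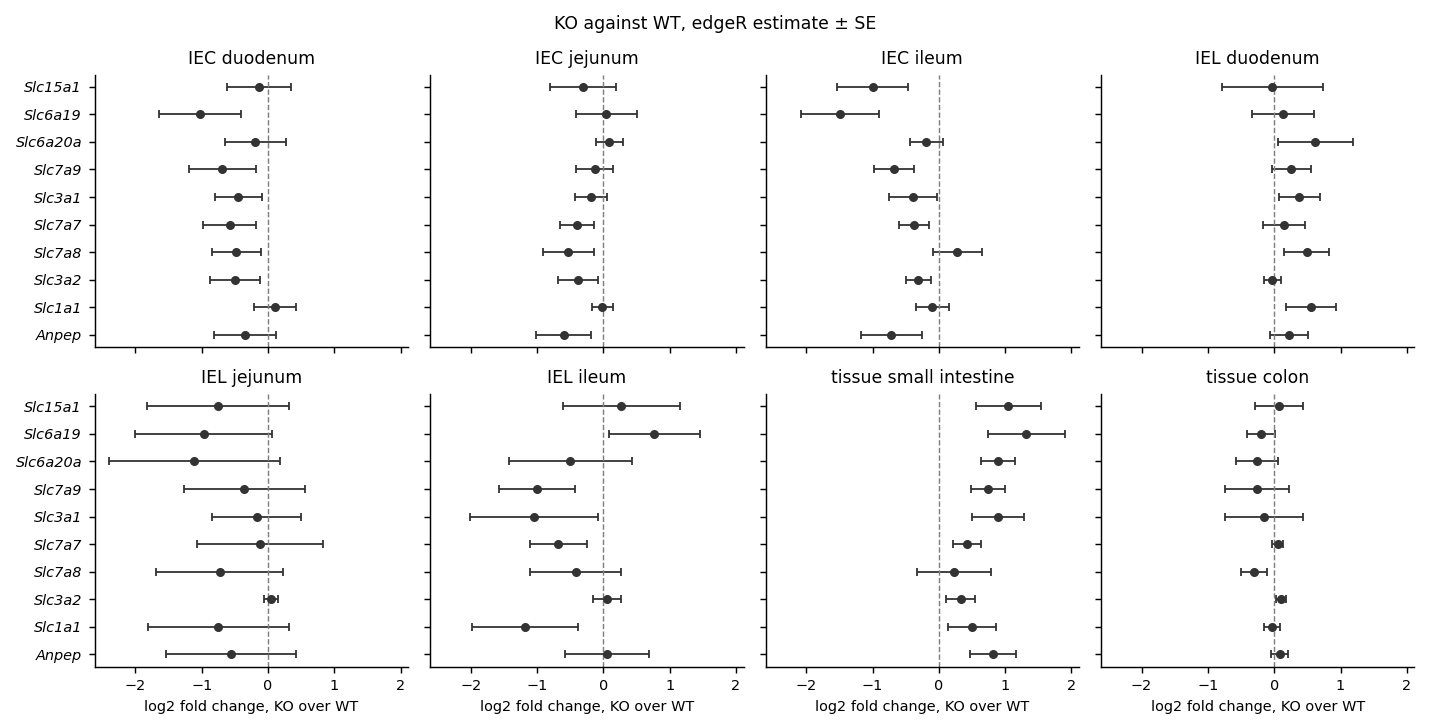
Each panel gives, for 1 comparison of KO with WT, the edgeR log2 fold change of the 10 member genes as points with bars of 1 SE and a dashed line at 0. All points lie right of the line in small intestine tissue and close to it in colon tissue, and bars are wide in γδ IELs except for Slc3a2.

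In colon tissue the members differed least, with log2 fold changes from -0.31 to 0.10 (median -0.09). Slc7a8 was 12.5, 17.4, and 28.5 CPM in WT and 10.2, 13.9, and 20.7 in KO, and the groups overlapped. The difference between the small intestine and colon effects was tested by an interaction, and 0 members were called (0.0193% of all genes), with the lowest FDR for Slc6a20a (-1.15 ± 0.416, edgeR FDR 0.322).

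In IECs most members had lower means in KO, and none passed the test. In the ileum 9 of 10 members had lower means in KO, with a median log2 fold change of -0.38 beside 0.02 for all genes. Slc6a19 was 64.2 and 61.1 CPM in WT and 19.5, 39.2, and 7.86 in KO, without overlap (-1.49 ± 0.586, edgeR FDR 0.9). Without overlap, 5 members were lower in KO ileum, as were 1272 of the 12925 genes tested, while 1367 genes were higher. In the duodenum 9 of 10 were lower as well (median -0.46) and in the jejunum 8 of 10 (median -0.25). The members with higher means in KO were Slc1a1 in duodenum (0.11), Slc6a19 and Slc6a20a in jejunum (0.04 and 0.09), and Slc7a8 in ileum (0.28). The 3 libraries whose regional genes went against their labels enter these comparisons, and single libraries set several directions. Without duodenum KO 1, which leaves 1 KO library there, Slc15a1, Slc6a20a, and Anpep turned to 0.51, 0.31, and 0.21 and Slc1a1 to -0.37, and without duodenum WT 2 Slc7a9 stood at 0.01. Without ileum KO 1, Slc7a8 turned to -0.17 and Slc1a1 to 0.10. In the jejunum the sign of Slc1a1, Slc6a19, Slc6a20a, Slc7a9, and Slc15a1 turned when 1 library or another was left out. Of the 12 pan-epithelial genes, 11 were lower in KO ileum (median -0.24) and 10 in KO jejunum (median -0.21), while 9 were higher in KO duodenum (median 0.11). Their part in the differences of the members was not tested. Interactions of genotype with segment (ileum against duodenum) called 0 members and 0% of all genes in IECs, and 0 members and 0% in γδ IELs, with 0 members at an unadjusted p below 0.05 in either.

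In γδ IELs, Slc3a2 had log2 fold changes of -0.03 ± 0.126, 0.04 ± 0.104, and 0.05 ± 0.208 in duodenum, jejunum, and ileum. The other 9 ranged from -0.03 to 0.62 in duodenum, -1.11 to -0.12 in jejunum, and -1.18 to 0.77 in ileum. Epithelial content moved with these groups, at 1027 to 3624 CPM summed over the 12 genes in KO ileum and 3474 to 9038 in WT ileum, and at 604 to 5451 and 2046 to 5595 in KO and WT jejunum. In the ileum limma-voom with quality weights called 3 members lower in KO, Slc1a1 (-2.10, FDR 0.0307), Slc3a1 (-2.51, FDR 0.0407), and Slc7a9 (-1.52, FDR 0.0443), among 1207 genes. The part of epithelial content in these differences was not tested.

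Among the 33 other pathway genes tested in small intestine tissue, 24 had higher means in KO and 0 were called, with 19 at an unadjusted p below 0.05 and a median log2 fold change of 0.75. All 14 tested peptidases were higher, with a median of 0.87. In colon tissue 15 of 32 were higher (median -0.01) and 0 were called, with 1 at an unadjusted p below 0.05. In IECs 0 of 30 to 32 were called in any segment, and in γδ IELs 0 of 26 to 29, while unadjusted p fell below 0.05 for 2, 0, and 2 of them in IECs of duodenum, jejunum, and ileum and for 0, 0, and 2 in γδ IELs.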

How the data were processed

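Bulk RNA-sequencing libraries (65 of the 71 samples) were analysed, and the 6 single-cell libraries were not used here. The authors mapped reads in ArrayStudio to a mouse genome (GRCm38 per the labels), quantified genes by RSEM, and deposited expected counts in 3 tables of 24475 identifiers each. The paper and the labels name different library kits, of which only that of the labels keeps strand, and the paper states that reads of the sense strand were counted. Here the expected counts were rounded to whole numbers. Values not whole made up 5.001% (γδ IEL), 14.91% (IEC), and 17.2% (tissue). The 100 identifiers with no symbol were kept and held 0.2535% to 9.24% of a library's counts. 1 column of the γδ IEL file matched no sample and was left out. No replicate pair agreed within sampling noise.

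A gene entered a test if it reached 10 counts in n libraries, n being the size of the smaller group. Tests were made by edgeR 4.0.16 (quasi-likelihood, TMM) in R 4.3.3, on the groups compared, with Benjamini-Hochberg adjustment over all genes tested. SE was derived from the log2 fold change and F statistic. limma 3.58.1 and DESeq2 1.42.0 were alternatives. Correlations used two-sided permutation tests with 100000 resamples (SciPy 1.17.1). The edgeR step was tried on simulated counts of independent libraries with the same dispersion for all genes. No outlying or mislabelled library was simulated, so the trial does not cover such cases. Per the paper the γδ IEL segments of a genotype came from the same pooled mice. Tests between segments treat these libraries as independent. For IECs and tissue nothing says that every library came from a separate animal, so p-values measure the spread between these libraries, which may be technical. Intervals and floors (3 counts) cover counting error only. Levels of different tables were normalized separately. Promoter sequences came from RefSeq (GRCm38.p6). Named genes were the 10 members, Btnl2, up to 6 called genes of the pathway list per comparison by absolute log2 fold change, the 3 genes most like each member, and regional genes; a gene that this rule named in tissue is not reported here. The members and lists were chosen with earlier results of these data known.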

Additional observations from a re-analysis of the deposited data

Results flagged for a closer look

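Of 80 checks of 1 member in 1 group of 4 to 10 libraries, 8 found a library far from the rest of its group by Dixon's criterion, where chance gives about 1 in 20. In small intestine tissue KO 1 held 1007 CPM of Slc15a1 (others 287 to 502), 307 of Slc7a8 (45.1 to 59.8), and 266 of Slc3a2 (115 to 139). WT 5 held 258 CPM of Slc7a8 (others 35.3 to 69.4) and 204 of Slc3a2 (86.3 to 124). These are the 2 libraries high in Gata4, and the part of their position along the gut was not tested. WT 1 held 441 CPM of Slc1a1 (others 121 to 242). In γδ IELs, ileum WT 2 held 2.01 CPM of Slc15a1 (others 0.169 to 0.358) and 15.1 of Anpep (5.70 to 6.61), and it also had the highest summed pan-epithelial level of the table, 9038 CPM.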

How the results depend on the processing

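No paired analysis was possible because the labels carry no replicate numbers and do not say which segments of γδ IELs share a pool of mice. Of 3229 alternative values of single members, 2980 kept their direction and side of the threshold, 35 gained a call, 14 lost one, and 199 turned direction without a call in either fit. In 1 more case a turned value was called: with the pan-epithelial covariate, Slc7a9 in WT γδ IELs of ileum against jejunum was -1.0. The cause was not tested. The number of members called changed as follows. In IECs, KO ileum against duodenum gave 3 without the doubted libraries, WT ileum against jejunum gave 1 with DESeq2 and 1 with limma-voom, and WT ileum against duodenum gave 0 with all libraries in one fit. In WT γδ IELs, jejunum against duodenum gave 1 with DESeq2 and 1 with the covariate. Ileum against duodenum gave 3 with DESeq2, 2 with no filter, 0 with all libraries in one fit, and 6 with the covariate. Ileum against jejunum gave 2 with limma-voom, 0 in one fit, and 8 with the covariate. Colon against small intestine in WT gave 10 without WT 6 and 7. KO against WT gave 3 in γδ IEL ileum with limma-voom, and in small intestine tissue 2 with DESeq2, 1 in one fit, and 1 without WT 2 and 3. Leaving out 1 library gave 0 to 1 (WT IECs, ileum against duodenum and against jejunum), 0 to 2, 0 to 1, and 3 to 4 (WT γδ IELs, ileum against duodenum, jejunum against duodenum, and ileum against jejunum).

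Over all genes, counts of calls spanned 0 to 1638 (860 as reported) for WT IECs of ileum against duodenum, 0 to 292 (84) against jejunum, 0 to 415 (100) for jejunum against duodenum, 125 to 548 (272), 1358 to 4293 (2822), and 2076 to 4275 (2900) for the same WT γδ IEL comparisons, 1 to 147 (1) for KO γδ IELs, 0 to 1207 (0) for γδ IEL ileum KO against WT, and 3 to 324 (3) for small intestine KO against WT. Without a fold minimum, colon against small intestine gave 7115 (4185) in WT and 7561 (4463) in KO. Leaving out tissue libraries by Gata4, Car1, or epithelial level was chosen after seeing the data.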
